A study of Mus musculus with 22 samples.

Results

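The 8 genes described here encode receptors through which hormones and neuropeptides act on feeding, metabolism and reproduction in the hypothalamus. They were chosen by name: Lepr (leptin receptor), Prlr (prolactin receptor), Esr1 (estrogen receptor alpha), Npy1r, Npy2r and Npy5r (neuropeptide Y receptors), Ghsr (ghrelin receptor) and Glp1r (glucagon-like peptide 1 receptor). All 8 were among the 20668 genes in the table of nuclei, and 7 of them were among the 16304 genes in the table of whole cells. Glp1r in whole cells was not analysed here.

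Lepr and Prlr are cytokine-type receptors that signal through Jak2 and the transcription factors Stat3 and Stat5, and the Socs proteins that these factors induce shut the signal down again. Esr1 is a ligand-activated transcription factor. The remaining receptors couple to G proteins: Npy1r and Npy5r promote feeding when they bind neuropeptide Y from Agrp neurons, Npy2r acts largely on the neurons that release neuropeptide Y, Ghsr carries the hunger signal of ghrelin, and Glp1r carries a satiety signal. In the arcuate nucleus, Agrp neurons are a major site of Lepr, and neurons that make kisspeptin and neurokinin B are a major site of Esr1 and Prlr.

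The data came from male ob/ob mice, which make no functional leptin, so that Lepr had no endogenous ligand in any group. Each mouse, aged 11 weeks, received a single injection of 3 µg recombinant human FGF1 or of vehicle (PBS) into a lateral cerebral ventricle (icv), and vehicle mice were given the food amount that FGF1 mice ate. Nuclei of hypothalamic punches were sequenced singly (snRNA-seq) from 3 mice of each treatment 24 h later (Day 1) and from 2 of each on Day 5. For Day 5, 6 more mice per treatment were sequenced as whole cells (scRNA-seq), with neurons removed by the authors, and each of the 22 samples was 1 mouse. All mice shared the leptin deficiency, the surgery and the feeding schedule of their group, and mice fed freely without FGF1 were not part of these samples.

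The values were counts of unique molecular identifiers (UMIs), which stand for single captured transcripts, and levels are given as CPM, the UMIs of a gene scaled to all UMIs of that cell type in a mouse. Totals ran from 2721087 to 16345981 UMIs per mouse in nuclei and from 2652897 to 11866269 in cells. On Day 1 the median UMIs per nucleus were lower in every FGF1 library (2029 to 2816) than in every vehicle library (3178.5 to 3776). The deposited names of the nuclear types were checked against their genes. No library shared its counts with another: 318 barcode sequences of nuclei and 1791 of cells occurred in more than 1 library, and 0 of them with identical counts. Agrp and Npy were higher in n13.Agrp/Gm8773 than in any of 36 types, Ghrh was highest in n10.Ghrh, and Tac2 was second highest in n20.Kiss1/Tac2, where Kiss1 was not analysed here. GABA15 held the second highest Agrp level, with an Agrp UMI in 99.4% of nuclei, and like n13.Agrp/Gm8773 it met all 4 markers of Agrp neurons. The type n29.Nr5a1/Adcyap1 had the second highest Nr5a1 level at only 25.8 CPM and met none of the 3 ventromedial markers by the rule used, so it is called by its deposited name. Nuclei labelled Olig, COP and Micro held neuronal marker RNA at 87.0%, 69.6% and 87.0% of the level in unmapped neurons, against 23.9% in Astro and 16.4% in Tany, and receptor values in those glial labels are given with that in view.

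Where a promoter sequence can be read, it gives the letters near a gene's start to set beside its values. All 8 receptors had at least 1 promoter, 250 bases before to 50 bases after the start, in the RefSeq table for GRCm38.p6. These were searched on both strands for the palindromic STAT motif TTCNNNGAA, which 8.298% of all 32851 promoters of that length held, and for the estrogen response element, GGTCA facing its inverted copy across 3 bases, which 0.07% held. A STAT match lay in 2 of the 12 promoters of the 8 receptors, in 1 of the 3 of Prlr and 1 of the 2 of Esr1, and in a promoter of 2 of the 22 genes of leptin and prolactin receptor signalling, Socs3 and Cish, of which 19 were in the table. None of the 8 receptors had an estrogen response element in these windows. The promoters of Lepr (the first of its pair, chr4:101717157-101717456, plus strand), of Prlr (chr15:10223656-10223955, plus strand), of Esr1 (chr10:4709908-4710207, plus strand) and of Socs3 (chr11:117969317-117969616, minus strand) are shown 5′ to 3′, Lepr because it had no match and the others with the match in capitals.
Lepr: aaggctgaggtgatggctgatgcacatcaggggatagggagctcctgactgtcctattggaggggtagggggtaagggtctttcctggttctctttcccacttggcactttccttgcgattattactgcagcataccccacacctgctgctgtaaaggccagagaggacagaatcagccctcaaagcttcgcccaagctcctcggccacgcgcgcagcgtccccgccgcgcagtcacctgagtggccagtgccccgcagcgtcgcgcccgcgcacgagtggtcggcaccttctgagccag
Prlr: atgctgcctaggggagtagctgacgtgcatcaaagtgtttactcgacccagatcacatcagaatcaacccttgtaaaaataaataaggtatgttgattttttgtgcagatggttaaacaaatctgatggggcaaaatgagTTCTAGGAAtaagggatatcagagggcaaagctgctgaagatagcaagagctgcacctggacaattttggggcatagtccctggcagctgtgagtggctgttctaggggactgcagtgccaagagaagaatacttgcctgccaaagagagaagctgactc
Esr1: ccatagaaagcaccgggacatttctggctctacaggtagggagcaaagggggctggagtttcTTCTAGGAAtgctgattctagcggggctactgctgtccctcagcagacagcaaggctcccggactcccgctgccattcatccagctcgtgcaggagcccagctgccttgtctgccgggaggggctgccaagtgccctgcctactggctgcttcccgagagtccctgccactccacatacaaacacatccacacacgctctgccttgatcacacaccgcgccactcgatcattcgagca
Socs3: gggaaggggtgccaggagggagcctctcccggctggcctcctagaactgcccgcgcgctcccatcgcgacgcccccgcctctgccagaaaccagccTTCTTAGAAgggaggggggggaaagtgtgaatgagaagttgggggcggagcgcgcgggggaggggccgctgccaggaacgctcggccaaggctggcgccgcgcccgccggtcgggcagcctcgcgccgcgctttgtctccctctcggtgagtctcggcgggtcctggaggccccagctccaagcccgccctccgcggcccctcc
The matches began 110 bases before the start of this Prlr promoter, 188 bases before that of Esr1 and 154 bases before that of Socs3. A match of letters is a description and does not show binding.

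In the GRCm38 annotation (GENCODE vM21), Lepr spanned chr4:101717404-101815352 on the plus strand, Esr1 chr10:4611593-5005614 on the plus strand and Prlr chr15:10177238-10349180 on the plus strand, where Gm21973 overlaps it on the same strand, so Prlr counts are uncertain to that extent. Npy1r (chr8:66697192-66706792, plus strand) and Npy5r (chr8:66679965-66688128, minus strand) are neighbours 9063 bases apart. Npy2r lay at chr3:82538383-82548084 on the minus strand and Ghsr at chr3:27371351-27378010 on the plus strand. Glp1r lay at chr17:30901817-30940791 on the plus strand and overlaps AC174471.1 and AC165951.1 on the other strand, whose reads cannot be told apart from it where strand was not used. Introns were counted in nuclei, so long genes gather more UMIs and levels are compared across types within a gene, not between genes.

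Lepr was highest in the Agrp neurons. Its mean level in n13.Agrp/Gm8773 was 508 CPM ± 238 (SD, n = 10 mice), and 60.7% of these nuclei held a Lepr UMI (Wilson 95% interval 55.4% to 65.7%, counting error only). The second type was GABA15 at 286 CPM ± 81.4 (n = 6 mice), with 60.8% of nuclei, and it was also the type with the second highest Agrp level. GABA15 nuclei were deeper, at a median of 4184 UMIs against 2352 in n13.Agrp/Gm8773, so these shares do not compare like with like. Then came n10.Ghrh, the neurons of growth hormone-releasing hormone, at 139 CPM ± 65.9 (n = 6). The mouse ranges of n13.Agrp/Gm8773 (213 to 1052), GABA15 (145 to 376) and n10.Ghrh (69.9 to 263) overlapped step by step, so the order of these 3 neighbours was not set beyond their spread. Among non-neuronal nuclei the vascular leptomeningeal cells (VLMC) stood highest at 67.6 CPM ± 46.9 (n = 5), with 1 mouse at 0. In astrocyte nuclei 1.11% held a Lepr UMI at a median of 2693.5 UMIs per nucleus, against 2352 in n13.Agrp/Gm8773.

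Prlr and Esr1 shared their highest type, n20.Kiss1/Tac2. Prlr averaged 291 CPM ± 170 there (n = 7 mice, 0 to 513), and the mouse at 0 had 10 nuclei of this type. It was followed by n19.Gpr50 at 104 CPM ± 73.3 (n = 5) and n29.Nr5a1/Adcyap1 at 95.6 CPM ± 14.7 (n = 10, 76.0 to 124), whose 630 UMIs gave the steadiest Prlr value of these 3 types. Esr1 averaged 329 CPM ± 116 in n20.Kiss1/Tac2 (n = 7, 141 to 481), where 53.7% of nuclei held a UMI (Wilson 46.0% to 61.1%), and 220 CPM ± 130 in n10.Ghrh (n = 6, 93.2 to 424). The Esr1 range of n20.Kiss1/Tac2 overlapped that of n10.Ghrh and of no lower type. Lower levels of Esr1 were found in n03 (67.0 CPM ± 46.3) and n19.Gpr50 (59.9 CPM ± 37.1, n = 5 each).

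**Figure D1:**
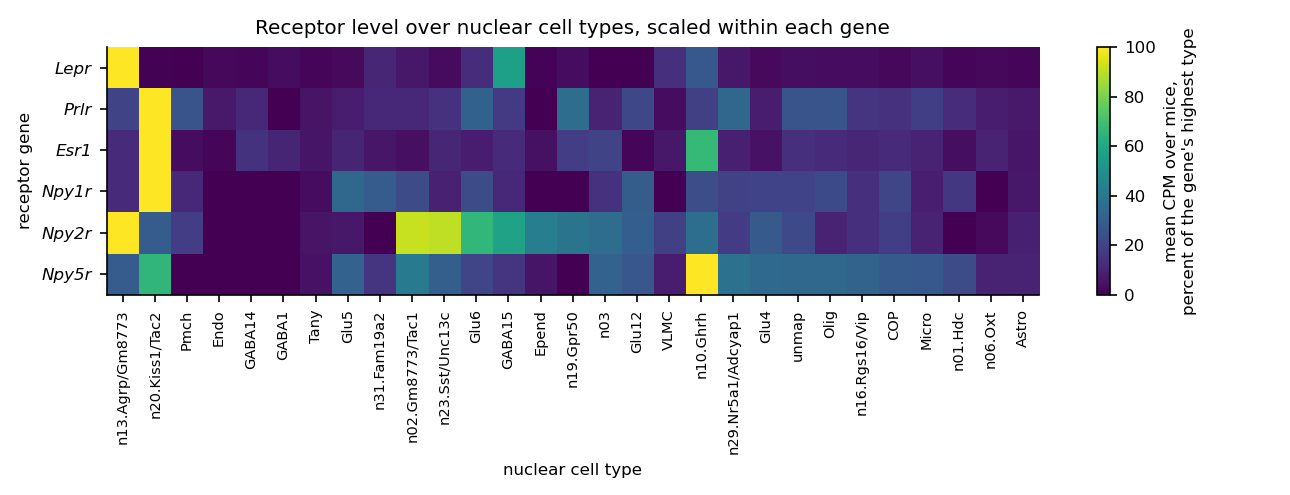
Heat map of 6 receptors (rows) over 29 nuclear cell types (columns) with at least 3 mice, where each cell is the mean CPM over mice as a percent of that receptor's highest type. Lepr peaks in n13.Agrp/Gm8773 (508 CPM), Prlr and Esr1 in n20.Kiss1/Tac2 (291 and 329 CPM), Npy1r in n20.Kiss1/Tac2 (42.5 CPM), Npy2r in n13.Agrp/Gm8773 (27.6 CPM) and Npy5r in n10.Ghrh (30.6 CPM).

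The neuropeptide Y receptors were sparse in nuclei. Npy1r averaged 42.5 CPM ± 38.7 in n20.Kiss1/Tac2 (n = 7, 0 to 94.2), which held 18 UMIs over all its mice. In Glu5 it averaged 14.2 CPM ± 9.81 (n = 10) on 61 UMIs. Npy2r was highest in n13.Agrp/Gm8773 at 27.6 CPM ± 16.8 (8.11 to 51.7), the type with the highest Npy level, and all 10 mice had an Npy2r UMI there. Close behind were n02.Gm8773/Tac1 at 25.3 CPM ± 22.6 (n = 7) and n23.Sst/Unc13c at 25.0 CPM ± 18.2 (n = 9), which did not differ from it beyond their spread. GABA15, the type with the second highest Npy level (6462 CPM), stood lower, at 57.4% of the Npy2r level of n13.Agrp/Gm8773. In vehicle nuclei alone, over the 21 types with at least 50 of them, n23.Sst/Unc13c was the highest at 23.9 CPM, so the order of these types was not set. Npy5r averaged 30.6 CPM ± 37.3 in n10.Ghrh (n = 6), which held 14 UMIs over all its mice. Apart from unmapped neurons, its best measured type was n29.Nr5a1/Adcyap1 at 11.4 CPM ± 4.21 (n = 10) on 83 UMIs.

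Ghsr and Glp1r were near the limit of detection. Over all 19416 neuron nuclei Ghsr had 17 UMIs and Glp1r 28. Glp1r was highest in the type labelled n06.Oxt, in which 24.6% of nuclei held an Oxt UMI and Oxt was second highest of 36 types, at 8.06 CPM ± 7.26 (n = 9), from 9 UMIs in 9 of 301 nuclei (2.99%, Wilson 1.58% to 5.58%), with a UMI in 6 of the 9 mice, and at 16.5 CPM after thinning each nucleus. Ghsr reached 3.88 CPM in n10.Ghrh on 1 UMI, 3.76 CPM in n02.Gm8773/Tac1 on 2 UMIs and 2.47 CPM in n13.Agrp/Gm8773 on 2 UMIs, so its order over types could not be read at this depth. Neither receptor passed the count filter in any type, and neither was tested in the filtered fit.

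In the whole cells of Day 5, 3 receptors stood out in the vascular and ventricular classes. These classes were named from marker genes and are called by the type they resemble. Npy1r, whose ligand constricts vessels, averaged 209 CPM ± 123 in smooth muscle-like cells (n = 3 mice with at least 10 such cells). All 95 cells of the class, those of the remaining mice included, held 32 Npy1r UMIs, so the 3 mice rest on only part of these. Of the 95 cells 25.3% held a UMI (Wilson 17.6% to 34.8%) at a median of 1241 UMIs per cell, against 0.162% of astrocyte-like cells at 1087. Among mice with at least 10 cells of a class, the 3 mice there (86.2 to 332 CPM) lay above every mouse of every other class. Vehicle replicate 22 of the pericyte-like cells, at 83.2 CPM, came close to the lowest of them. Npy2r averaged 9.87 CPM ± 7.61 in ependymal-like cells (n = 12, 72 UMIs), where 1.99% of cells held a UMI at a median of 1496 UMIs per cell, against 0.080% of oligodendrocyte-like cells at 1372.5. Lepr averaged 17.9 CPM ± 30.4 in VLMC-like cells (n = 9) with 6 mice at 0, so that this mean rests on few mice. In endothelial-like cells it averaged 8.42 CPM ± 4.20 (n = 12), where 11 of 12 mice had a UMI. Prlr averaged 5.36 CPM ± 3.06 in oligodendrocyte-like cells (n = 12, 81 UMIs). Esr1 had 17 UMIs in ependymal-like cells (2.38 CPM ± 1.82), while Npy5r and Ghsr had at most 5 UMIs in any class.

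Across 21 nuclear types with at least 50 vehicle nuclei, the genes most alike each receptor were found by Pearson's r of log2(CPM + 1) over 15020 genes, as a description over types that share libraries and depth. Lepr was closest to Tiam1 (r = 0.789), Pip5k1a (0.782) and Ube4b (0.777). Prlr was closest to Actl6b (r = 0.908), Plppr2 (0.888) and Camkmt (0.883), and Esr1 to Zfp74 (r = 0.816), Ammecr1 (0.814) and AU041133 (0.778). Npy1r was closest to Dpep3 (r = 0.894), Glod5 (0.783) and Ncam2 (0.778), Npy2r to 4933427G17Rik (0.776) and Rnf166 (0.757), and Npy5r to Gad1os (0.846), Tnfsf13b (0.837) and Htr2a (0.832). The lists of Glp1r (Icam2 0.795, Mrps26 0.787, Ptbp3 0.730) and Ghsr (Olfr702 0.821, Cltc 0.735, Fkbp1a 0.718) rest on a receptor that reached 10 CPM in no type. Between receptors the highest values were r = 0.685 for Prlr with Esr1 and for Npy1r with Prlr, and 0.661 for Npy1r with Esr1, 3 receptors that share n20.Kiss1/Tac2 as highest type.

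The central comparison asked whether receptor RNA differed between FGF1 and vehicle mice in any cell type. No receptor was called in any type on either day by edgeR's quasi-likelihood test on counts summed per mouse (adjusted p below 0.05, Benjamini-Hochberg over all genes of a type). The sum over all neurons is counted below as 1 of the types, although its nuclei also enter the single neuron types. On Day 1, 20 tests of 6 receptors in 6 types passed the count filter, 0 were called, and 0 had an unadjusted p below 0.05, while 0.867% of all 87225 gene tests of that day were called. On Day 5, 29 tests in 10 types gave 0 calls and 4 with an unadjusted p below 0.05, against 0.235% of 87563 tests called. In the fit over both days 0 of 38 tests were called, and 0 had an unadjusted p below 0.05, against 0.518% of all genes. The difference of the effect between the days gave 0 calls in 29 tests and 4 with an unadjusted p below 0.05, against 0.00644% of all genes. DESeq2, which tested more of these sparse genes, called 0 of 122 receptor tests on Day 1, 0 of 81 on Day 5, 0 of 161 over both days and 0 of 86 between days, with 0, 2, 0 and 3 at an unadjusted p below 0.05. The edgeR fit without the count filter called 0 of the same tests and had 5, 5, 6 and 5 at an unadjusted p below 0.05, with a lowest adjusted p of 0.0502, for Prlr in unmapped neurons on Day 5. At these shares of calls, counts of 0 among 20 to 38 tests do not set the receptors apart from other genes.

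The receptors showed no common direction. On Day 1, 9 fitted differences were positive and 11 negative, with a median log2 fold change of -0.02 against 0.01 over all genes, and on Day 5 there were 14 positive and 15 negative, with a median of -0.0026 against 0.0005. Over both days 13 were positive and 25 negative, with a median of -0.09 against 0.01. In bulk sums over a type, fewer receptor-bearing nuclei and less RNA per nucleus cannot be told apart.

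**Figure D2:**
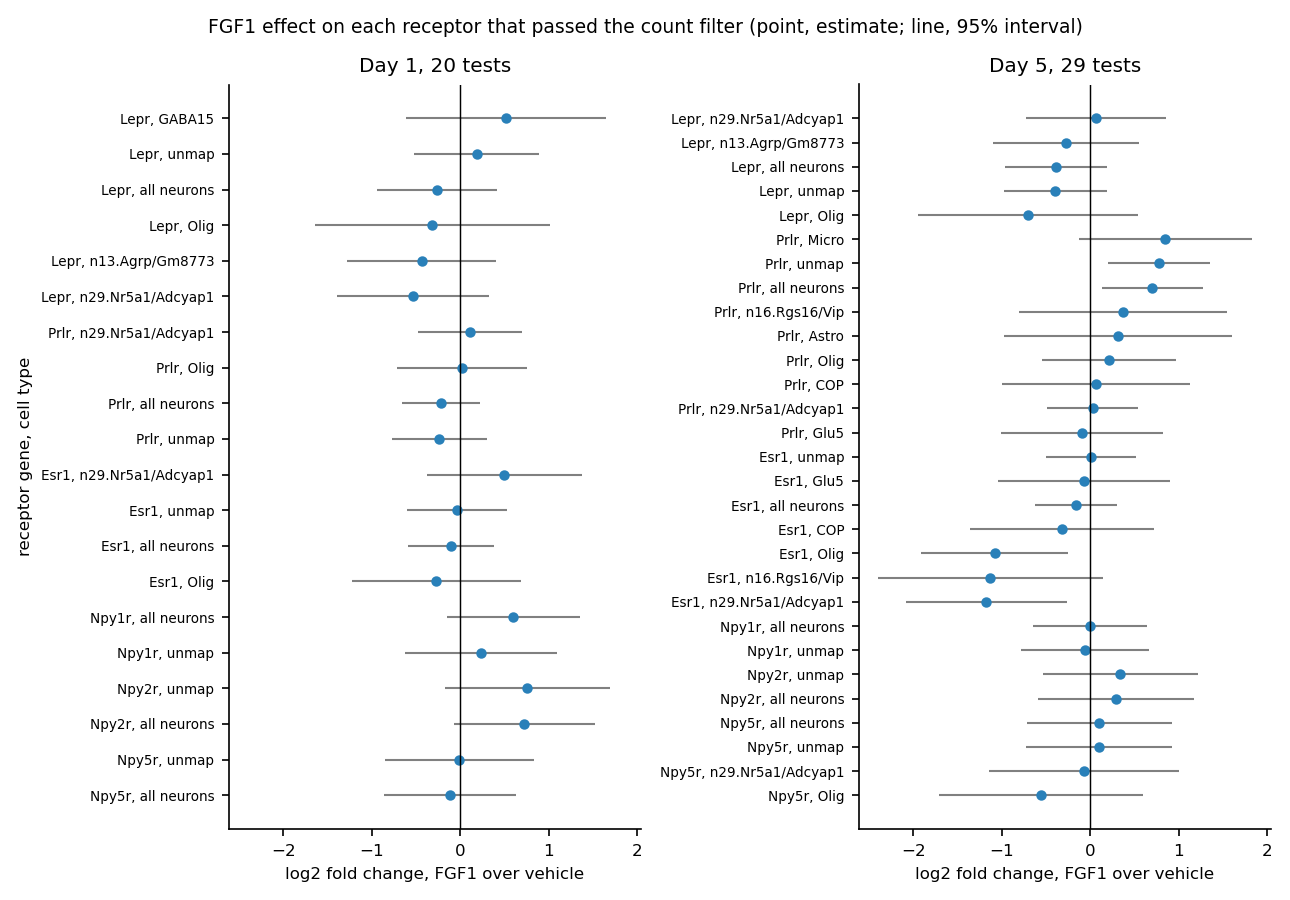
Log2 fold changes of FGF1 against vehicle with 95% intervals for the 20 receptor tests of Day 1 and the 29 of Day 5 in nuclei, 1 row per receptor and type. No test was called, and the intervals that leave out 0 are those of Prlr in all neurons and in unmapped neurons and of Esr1 in n29.Nr5a1/Adcyap1 and Olig, all on Day 5.

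Lepr in the Agrp neurons of n13.Agrp/Gm8773 was not called on either day, and its FGF1 mice lay close together within a wide vehicle range. In n13.Agrp/Gm8773 the 3 FGF1 mice of Day 1 had 439, 445 and 432 CPM, and the 3 vehicle mice 604, 291 and 1052 CPM. On Day 5 the FGF1 mice had 433 and 445 CPM and the vehicle mice 721 and 213 CPM. All 5 FGF1 mice lay between 432 and 445 CPM, inside the vehicle range on both days, and whether the spreads differ was not tested. The log2 fold change was -0.44 ± 0.39 (SE; 95% interval -1.27 to 0.40; edgeR adjusted p = 0.763) on Day 1 and -0.27 ± 0.40 (-1.10 to 0.56; adjusted p = 0.979) on Day 5. Leaving out 1 mouse moved the Day 5 value from -0.779 to 0.982 and that of Day 1 from -0.831 to 0.001, so its direction was not set. The Day 1 interval runs from a fold of 0.414 to a fold of 1.32, so equal levels were not shown. Over both days the value was -0.35 ± 0.31 (-1.01 to 0.31; adjusted p = 0.832).

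The share of n13.Agrp/Gm8773 nuclei with a Lepr UMI, after thinning each nucleus to 1500 UMIs, was 42.8% ± 3.21 in FGF1 mice and 52.4% ± 25.8 in vehicle mice of Day 1 (n = 3 each), and 52.1% ± 8.76 and 43.3% ± 30.9 on Day 5 (n = 2 each). Without thinning it was 60.1% ± 10.9 and 72.7% ± 27.0 on Day 1, and 57.8% ± 12.6 and 69.2% ± 27.1 on Day 5. With 3 mice against 3 an exact permutation test cannot go below 0.10, so these shares are given as values only and no p is read. In GABA15 the mice with at least 10 nuclei had 343 and 292 CPM of Lepr with FGF1 and 308 and 145 CPM with vehicle on Day 1, which overlapped, and 1 FGF1 mouse had 250 CPM and 1 vehicle mouse 376 CPM on Day 5. The fit there gave 0.52 ± 0.52 on Day 1 (95% interval -0.61 to 1.64; adjusted p = 0.997).

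Lepr over all neurons was 28.9, 32.1 and 29.8 CPM in FGF1 mice and 47.8, 22.8 and 40.8 CPM in vehicle mice on Day 1, and 24.1 and 24.4 CPM against 39.9 and 25.2 CPM on Day 5. The FGF1 mice lay below both vehicle mice on Day 5 and within the vehicle range on Day 1. The log2 fold changes were -0.26 ± 0.30 (adjusted p = 0.846) and -0.38 ± 0.25 (adjusted p = 0.589). Of the 8 Lepr tests over both days, the sum over all neurons included, 7 values were negative and 1 positive, none called. In n10.Ghrh, FGF1 mice had 133 and 146 CPM of Lepr and the vehicle mouse 106 CPM on Day 1, and FGF1 mice 69.9 and 118 CPM and the vehicle mouse 263 CPM on Day 5 (over both days -0.58 ± 0.66; adjusted p = 0.909).

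**Figure D3:**
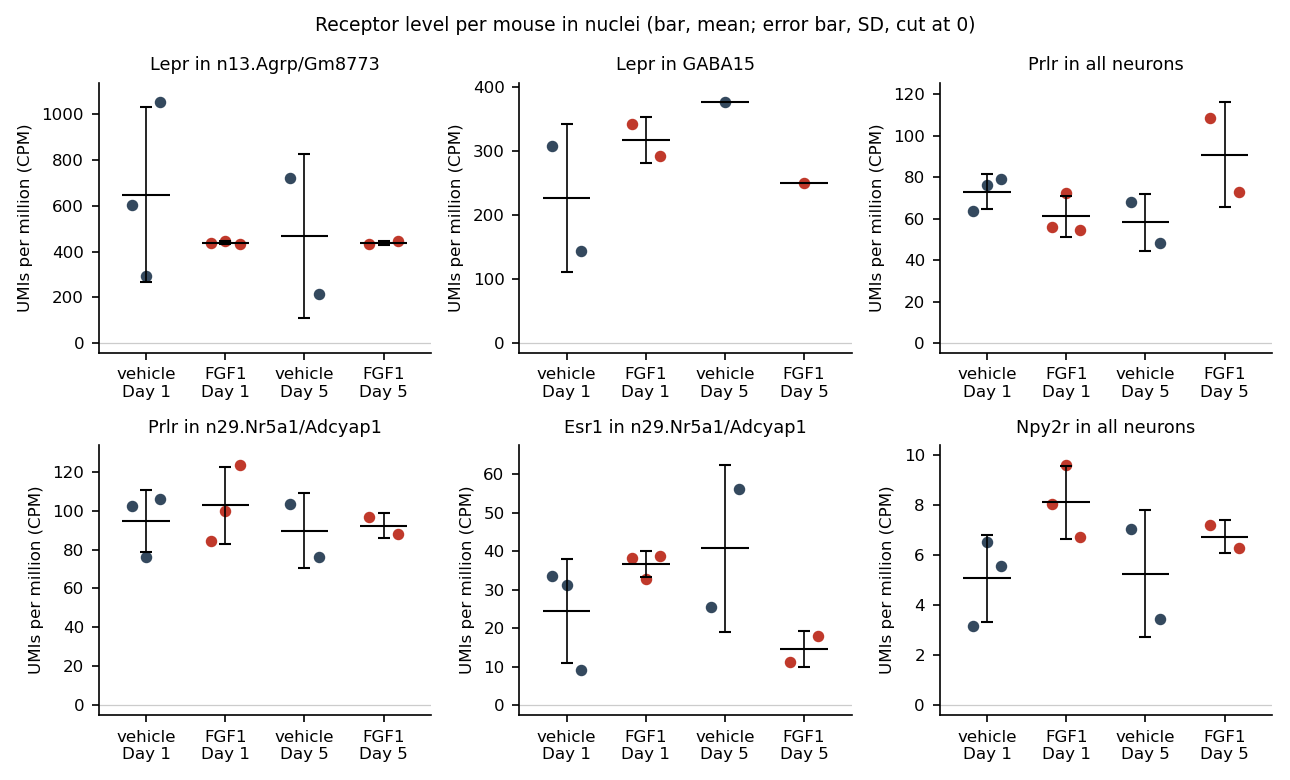
Per-mouse levels in CPM (y axis) of Lepr in n13.Agrp/Gm8773 and GABA15, Prlr in all neurons and n29.Nr5a1/Adcyap1, Esr1 in n29.Nr5a1/Adcyap1 and Npy2r in all neurons, for vehicle and FGF1 mice of Day 1 and Day 5 (nuclei). Points are mice with at least 10 nuclei, bars are means, and error bars are SDs drawn down to 0 at most. Lepr in n13.Agrp/Gm8773 lies at 432 to 445 CPM in the 5 FGF1 mice and at 213 to 1052 CPM in the 5 vehicle mice.

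Prlr was the receptor whose Day 5 values lay highest with FGF1, though it was not called. Over all neurons it was 109 and 73.0 CPM in the FGF1 mice and 68.0 and 48.4 CPM in the vehicle mice of Day 5, so the groups did not overlap. On Day 1 it was 56.1, 72.6 and 54.7 CPM with FGF1 and 63.5, 76.3 and 79.3 CPM with vehicle, which overlapped. The log2 fold change was 0.71 ± 0.25 on Day 5 (95% interval 0.13 to 1.28; edgeR adjusted p = 0.490), a 1.63-fold value, and -0.22 ± 0.19 on Day 1 (adjusted p = 0.807). The difference between the days was 0.94 ± 0.34 (0.18 to 1.69; edgeR adjusted p = 0.999). FGF1 was higher in 2 of 2 batches of the metadata on Day 5, which follows from groups that did not overlap and adds nothing. With the 4 mice left out in turn the edgeR adjusted p ran from 0.0262 to 0.994. The lowest came without vehicle replicate 28 (log2 fold change 1.07), a fit of 2 FGF1 mice against 1 vehicle mouse that is assumed to vary like the others, so it is not read as a call.

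The Day 5 values of neurons that could not be mapped to a named type were like those of all neurons, and those of n29.Nr5a1/Adcyap1 were not. In unmapped neurons, 53.1% to 65.1% of the neurons of a mouse, Prlr was 127 and 81.0 CPM with FGF1 and 72.2 and 51.7 CPM with vehicle on Day 5 (0.77 ± 0.26, 95% interval 0.20 to 1.35, edgeR adjusted p = 0.449). Apart from unmapped neurons, n29.Nr5a1/Adcyap1 was the type in which Prlr was best measured. Its Day 5 values were 96.7 and 87.9 CPM with FGF1 and 103 and 76.0 CPM with vehicle, and the log2 fold change was 0.03 ± 0.25 (-0.48 to 0.54, adjusted p = 0.989). A sum over all neurons moves with the mix of neuron types, which differed between mice: n13.Agrp/Gm8773 made up 0.686% and 1.06% of neurons in the FGF1 mice and 1.68% and 3.13% in the vehicle mice of Day 5. Unmapped neurons made up 65.1% and 62.9% with FGF1 and 60.7% and 53.1% with vehicle. The type n29.Nr5a1/Adcyap1 made up 9.83% and 10.2% against 10.3% and 15.8%, and none of these shares overlapped. The share of n20.Kiss1/Tac2, the type of highest Prlr, overlapped, at 0.686% and 0.775% with FGF1 and 0.974% and 0.446% with vehicle. The part of the mix in the Prlr value was not tested.

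In n20.Kiss1/Tac2, the type of highest Prlr, the mice with at least 10 nuclei had 306, 188 and 0 CPM with FGF1 and 247 CPM with vehicle on Day 1, and 513 and 333 CPM with FGF1 and 452 CPM with vehicle on Day 5. Only the fit over both days could be made there, with 5 FGF1 and 2 vehicle mice, and it gave -0.26 ± 0.44 (adjusted p = 0.988). In microglia nuclei Prlr was 93.1 and 64.7 CPM with FGF1 and 46.8 and 32.1 CPM with vehicle on Day 5 (0.85 ± 0.47, edgeR adjusted p = 0.744), and 50.3, 37.6 and 20.6 CPM against 36.9, 103 and 57.8 CPM on Day 1. The difference between days there was 1.67 ± 0.70 (edgeR adjusted p = 0.999), in nuclei whose neuronal marker RNA stood at 87.0% of the neuronal level. That RNA was 9401 to 9701 CPM with FGF1 and 9763 to 10932 CPM with vehicle on Day 5, and 7007 to 8019 CPM against 8186 to 9612 CPM on Day 1, without overlap on either day, and its part was not tested. On Day 5 the Prlr values of nuclei were positive in 8 of 9 tests, among which the sum over all neurons holds again the nuclei of unmapped neurons and of 3 neuron types tested apart. In microglia-like whole cells of Day 5 the unfiltered edgeR fit gave -1.03 ± 0.97 for Prlr (95% interval -2.92 to 0.87; adjusted p = 0.750).

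Esr1 in n29.Nr5a1/Adcyap1 had the most negative of the 29 receptor values of Day 5, and it was not called. It was 11.4 and 17.9 CPM in the FGF1 mice and 25.5 and 56.2 CPM in the vehicle mice, on 29 and 39 UMIs, and the groups did not overlap. On Day 1 the FGF1 mice had 38.3, 32.8 and 38.9 CPM and the vehicle mice 33.5, 31.2 and 9.07 CPM, which overlapped. The log2 fold change was -1.17 ± 0.44 on Day 5 (95% interval -2.08 to -0.26; edgeR adjusted p = 0.381), a fold of 0.444, and 0.50 ± 0.41 on Day 1 (adjusted p = 0.705). The difference between days was -1.73 ± 0.65 (-3.10 to -0.37; edgeR adjusted p = 0.782). FGF1 was lower in 2 of 2 batches on Day 5, which follows from groups that did not overlap and adds nothing. With the batch as a block the value was -1.38 (edgeR adjusted p = 0.0728). With 2 mice per group and a batch term, that fit takes its spread almost wholly from other genes. Its p is therefore not read as near a call.

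In oligodendrocyte nuclei Esr1 was 17.4 and 26.9 CPM with FGF1 and 42.1 and 73.6 CPM with vehicle on Day 5 (-1.08 ± 0.39, edgeR adjusted p = 0.532), and 37.5, 30.9 and 34.8 CPM against 67.9, 28.4 and 28.5 CPM on Day 1. These nuclei held neuronal marker RNA of 8785 to 9595 CPM in the FGF1 mice and 9748 to 10616 CPM in the vehicle mice of Day 5, for the 5 markers summed, and its part in the Esr1 value was not tested. In oligodendrocyte-like whole cells of Day 5 the unfiltered edgeR fit gave -0.16 ± 0.77 for Esr1 (95% interval -1.70 to 1.38; adjusted p = 0.956). In both types of highest Esr1, 1 vehicle mouse a day had at least 10 nuclei, and it lay above the FGF1 mice on Day 1 and between them on Day 5. In n20.Kiss1/Tac2 the FGF1 mice had 141, 242 and 332 CPM and the vehicle mouse 380 CPM on Day 1, and 293 and 481 CPM against 436 CPM on Day 5 (over both days -0.44 ± 0.39, adjusted p = 0.988). In n10.Ghrh the values were 146 and 102 CPM with FGF1 and 424 CPM with vehicle on Day 1, and 93.2 and 294 CPM against 263 CPM on Day 5 (-1.02 ± 0.52, 95% interval -2.06 to 0.01, adjusted p = 0.837). Over both days 11 of 12 Esr1 values were negative, with the sum over all neurons among them, yet over all neurons the value was -0.12 ± 0.14 (-0.44 to 0.19).

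Npy2r and Npy1r over all neurons lay higher with FGF1 on Day 1, without a call. Npy2r was 8.01, 9.61 and 6.70 CPM with FGF1 and 3.15, 6.51 and 5.55 CPM with vehicle, so the groups did not overlap. Its log2 fold change was 0.72 ± 0.35 (95% interval -0.08 to 1.52; edgeR adjusted p = 0.644), and over both days 0.57 ± 0.27 (-0.01 to 1.15; edgeR adjusted p = 0.430). On Day 5 the Npy2r values were 7.20 and 6.26 CPM against 7.03 and 3.46 CPM, which overlapped (0.30 ± 0.39, and -0.014 to 1.118 with 1 mouse left out). Npy1r was 11.2, 8.40 and 7.81 CPM with FGF1 and 7.03, 7.16 and 4.24 CPM with vehicle on Day 1 (0.60 ± 0.33, edgeR adjusted p = 0.679), and 9.85 and 9.18 CPM against 10.9 and 8.89 CPM on Day 5. For both receptors the groups of Day 1 did not overlap. FGF1 was therefore bound to be higher in 3 of 3 batches on that day, which adds nothing. Day 1 was also the day on which FGF1 nuclei were the shallower ones.

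In n13.Agrp/Gm8773 and in Glu5 these receptors were too sparse for the filter. Npy2r in n13.Agrp/Gm8773 was 36.2, 51.7 and 25.4 CPM with FGF1 and 8.16, 8.83 and 25.7 CPM with vehicle on Day 1, and 19.7 and 49.5 CPM against 8.11 and 42.6 CPM on Day 5, and the groups overlapped on both days. Npy1r in Glu5 was 32.6, 19.1 and 19.9 CPM with FGF1 and 0, 0 and 11.6 CPM with vehicle on Day 1, and 13.3 and 11.3 CPM against 13.3 and 21.3 CPM on Day 5, so that its groups overlapped only on Day 5. Npy5r over all neurons was 10.1, 7.20 and 8.93 CPM with FGF1 and 8.48, 13.5 and 6.85 CPM with vehicle on Day 1, and 8.97 and 14.2 CPM against 13.8 and 7.90 CPM on Day 5. Its groups overlapped on both days, with log2 fold changes of -0.12 ± 0.33 and 0.10 ± 0.36.

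In whole cells no receptor passed the count filter in any class, so the main test had 0 receptor tests, on a day when 4.18% of all 56173 gene tests were called. Without the filter 58 receptor tests were made, of which 6 had an unadjusted p below 0.05 and 0 were called, and DESeq2 had 2 and 0. The lowest p was that of Npy2r in ependymal-like cells. The FGF1 mice had 0, 0, 0, 4.93, 9.21 and 12.9 CPM and the vehicle mice 6.60, 12.5, 15.4, 17.3, 17.7 and 22.0 CPM, with means of 4.5 ± 5.53 and 15.2 ± 5.25 (SD, n = 6 each) on 25 and 47 UMIs. Only the vehicle mouse at 6.60 and the one at 12.5 CPM lay within the FGF1 range. The unfiltered log2 fold change was -1.04 ± 0.39 (95% interval -1.81 to -0.27; edgeR adjusted p = 0.243), and FGF1 was lower in 5 of 6 batches. The FGF1 mouse of 1 of these batches, at 0, had only 19 such cells with 21774 UMIs.

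The share of ependymal-like cells with an Npy2r UMI was 0.871% ± 1.02 in FGF1 mice and 2.62% ± 0.830 in vehicle mice (exact two-sided permutation test, p = 0.0108, adjusted over 58 tests 0.628). After thinning to 700 UMIs per cell it was 0.288% and 0.856% (exact permutation p = 0.113, adjusted 1.0). The UMIs per ependymal-like cell were 1146 to 2277.1 in FGF1 mice and 1488.6 to 2368.7 in vehicle mice. Of 52 thinned shares tested over the classes, 0 had an adjusted p below 0.05, and the lowest unadjusted value was 0.0606 for Prlr in endothelial-like cells by the exact permutation test. The smallest p that 6 mice against 6 allow is 0.0022.

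Prlr in oligodendrocyte-like cells was 0, 2.47, 3.22, 3.60, 6.35 and 6.86 CPM with FGF1 and 3.75, 5.13, 5.87, 6.47, 9.41 and 11.2 CPM with vehicle, and the groups overlapped. Its unfiltered log2 fold change was -0.86 ± 0.42 (edgeR adjusted p = 0.349), lower in 4 of 6 batches. The other receptor tests with an unadjusted p below 0.05 in the unfiltered edgeR fit were Lepr in ependymal-like cells (0 UMIs with FGF1 and 4 with vehicle, adjusted p = 0.311), Esr1 in COP-like cells (1 and 2 UMIs, adjusted p = 0.269), Npy1r in VLMC-like cells (6 and 0 UMIs, adjusted p = 0.972) and Npy5r in oligodendrocyte-like cells (0 and 5 UMIs, adjusted p = 0.317), none called and none with enough UMIs for a fold. In smooth muscle-like cells Npy1r was 86.2 CPM in the FGF1 mouse and 208 and 332 CPM in the vehicle mice with at least 10 such cells, too few mice for a test. In endothelial-like cells Npy1r was 0 to 17.6 CPM with FGF1 and 1.94 to 8.99 CPM with vehicle, and the ranges overlapped.

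**Figure D4:**
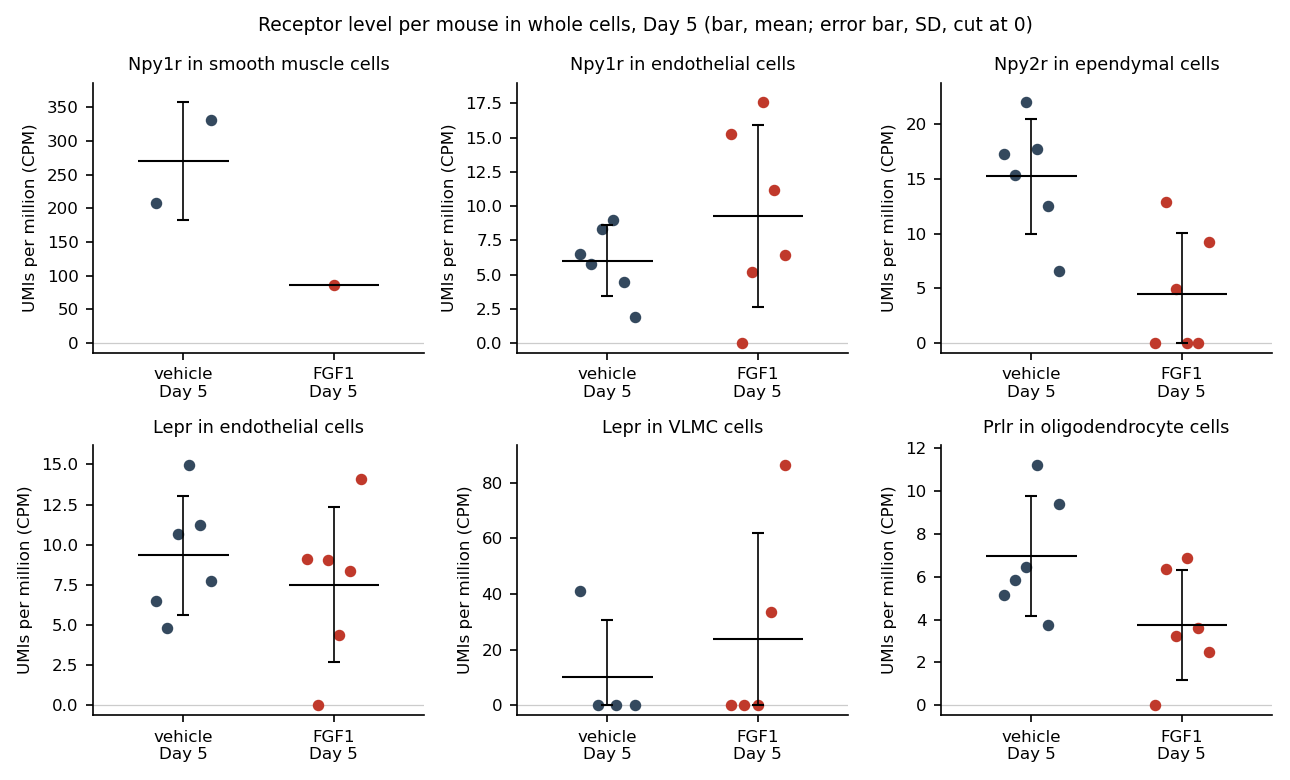
Per-mouse CPM (y axis) in whole cells of Day 5 for vehicle and FGF1 mice: Npy1r in smooth muscle-like and endothelial-like cells, Npy2r in ependymal-like cells, Lepr in endothelial-like and VLMC-like cells and Prlr in oligodendrocyte-like cells. Points are mice with at least 10 cells, bars are means and error bars SDs drawn down to 0 at most. Npy2r in ependymal-like cells averages 4.5 CPM with FGF1 and 15.2 CPM with vehicle.

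Some genes downstream of Lepr and Prlr rose with FGF1 on Day 1. Of 22 genes of leptin and prolactin receptor signalling, 20 were tested on Day 1 in 127 tests, of which 5 rose with FGF1 and 0 fell, while 0.867% of all gene tests of that day were called. They were Socs3 in astrocyte and tanycyte nuclei, Socs2 in n13.Agrp/Gm8773 and Stat3 in Olig and COP, and the median log2 fold change of the list was 0.31 against 0.01 over all genes. By edgeR 32 of the 127 tests had an unadjusted p below 0.05, for which no share over all genes is given. This list, like those below, was chosen with earlier results of these data known, and the 5 calls fall on 3 genes. The counts and the median are therefore no test of the list. Uncalled but without overlap, Stat3 was 115 to 165 against 40.0 to 60.4 CPM over all neurons and 261 to 561 against 74.6 to 154 CPM in Astro. It also lay higher without overlap in n13.Agrp/Gm8773, n23.Sst/Unc13c and n29.Nr5a1/Adcyap1, and overlapped in Tany. The calls therefore do not mark the only types with higher Stat3. On Day 5, 0 of 125 tests were called by edgeR (0.235% over all genes) and 0 by DESeq2, with 10 and 2 at an unadjusted p below 0.05 (median 0.16 against 0.0005), and between the days 0 of 140 by edgeR (0.00644% over all genes) and 0 by DESeq2, with 10 and 11, so a difference between the days was not shown. These genes also serve other cytokine receptors, such as those that use gp130.

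Socs3, the feedback inhibitor whose promoter with a STAT match is printed beside those of the receptors, was 144, 135 and 103 CPM in astrocyte nuclei of FGF1 mice and 0, 1.66 and 0 CPM in those of vehicle mice. That was 243 UMIs against 1, a ratio per total UMIs of 136 (counting interval 24.2 to 5392; edgeR adjusted p = 0.00286). In tanycytes, the glia that line the third ventricle, it was 128, 93.1 and 139 CPM against 0, 7.13 and 28.0 CPM, or 76 UMIs against 3 (ratio 14.5, 4.79 to 72.0; edgeR adjusted p = 0.00464). Neither set of mice overlapped. The neuronal marker RNA of the astrocyte nuclei did not overlap either, at 1247 to 2494 CPM with FGF1 and 2544 to 3978 CPM with vehicle on Day 1, and its part was not tested. On Day 5 no mouse of either group had a Socs3 UMI in these types. Lepr in astrocyte nuclei did not pass the filter on either day. Socs3 was higher with FGF1 on Day 1 in other types too, without a call and without overlap of the mice. It had 149 UMIs with FGF1 and 5 with vehicle over all neurons, 15 and 0 in Olig, and 10 and 0 in n29.Nr5a1/Adcyap1.

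Socs2, a Stat5 target that restrains growth hormone and prolactin signalling, was 212, 176 and 254 CPM in n13.Agrp/Gm8773 of FGF1 mice on Day 1 and 40.8, 17.7 and 0 CPM in vehicle mice, 68 UMIs against 7 (ratio 8.10, 3.73 to 20.9). Its log2 fold change was 3.04 ± 0.55 (edgeR adjusted p = 0.0450), while Lepr in the same nuclei was -0.44 ± 0.39. On Day 5 it was 0 and 12.4 CPM against 8.11 and 0 CPM. Socs2 on Day 1 was also 21.8 to 30.6 CPM with FGF1 and 7.76 to 10.1 CPM with vehicle over all neurons. In Olig it was 19.9 to 22.7 against 3.15 to 10.5 CPM. Neither overlapped or was called, while in Astro, Tany, COP, n23.Sst/Unc13c and n29.Nr5a1/Adcyap1 the groups overlapped. With each of the 6 mice left out in turn the Socs2 call was lost (edgeR adjusted p 0.0688 to 0.155), and with the batch as a block it was lost too (adjusted p = 0.101), the highest of the 2 of 5 other settings that ended it. Stat3 was 139, 179 and 174 CPM in Olig with FGF1 and 36.6, 39.4 and 52.9 CPM with vehicle (1.97 ± 0.30, adjusted p = 0.0177), and 156, 191 and 203 CPM against 54.5, 43.1 and 23.1 CPM in COP (2.17 ± 0.37, adjusted p = 0.0393). Both Stat3 calls were lost with the batch as a block (adjusted p = 0.184 in Olig and 0.278 in COP), the highest of the 3 of 7 other settings that ended the call in Olig and of the 2 of 6 in COP. Each was also lost without FGF1 replicate 2 or 3 or vehicle replicate 1 or 2, and that in COP without vehicle replicate 3, with adjusted p up to 0.200 in Olig and 0.233 in COP. The neuronal marker RNA of these nuclei was 6644 to 8244 CPM with FGF1 and 7506 to 10456 CPM with vehicle in Olig on Day 1, and 5574 to 6072 CPM against 6132 to 8755 CPM in COP, where the groups did not overlap, and its part was not tested. Of the mice left out in turn, only vehicle replicate 1 ended the Socs3 calls of Day 1 (edgeR adjusted p = 0.0563 in Astro and 0.0565 in Tany).

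**Figure D5:**
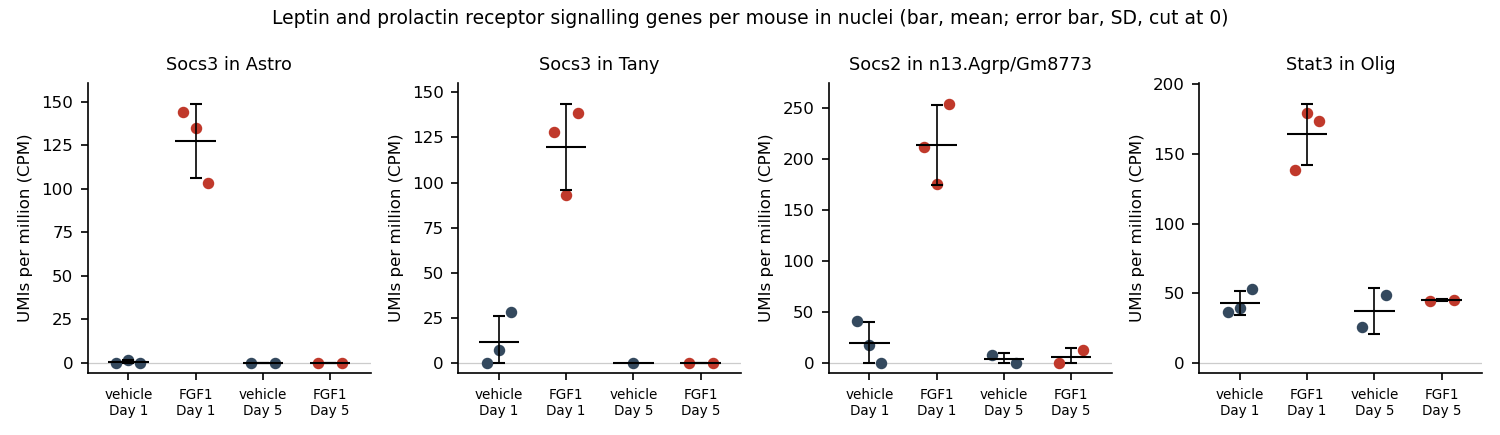
Per-mouse CPM (y axis) of Socs3 in astrocyte and tanycyte nuclei, Socs2 in n13.Agrp/Gm8773 and Stat3 in Olig for vehicle and FGF1 mice of Day 1 and Day 5, with bars for means and error bars for SDs drawn down to 0 at most. On Day 1 every FGF1 mouse lies above every vehicle mouse in all 4 panels, and on Day 5 Socs3 is at 0 in all mice shown.

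Over both days 4 tests of the signalling list rose and 0 fell, of 181: Socs3 in Astro (edgeR adjusted p = 0.000699) and Tany (0.00765), Socs2 in n13.Agrp/Gm8773 (0.0458) and Stat3 in n23.Sst/Unc13c (log2 fold change 2.51, adjusted p = 0.00556), against 0.518% of all gene tests. The Socs3 and Socs2 calls rest on Day 1 and are not second results. On Day 5 Socs3 had 0 UMIs in Astro and Tany, and Socs2 had 1 UMI per group in n13.Agrp/Gm8773. Stat3 in n23.Sst/Unc13c had 86 UMIs with FGF1 and 9 with vehicle on Day 1, and 9 and 2 on Day 5. Vehicle replicate 38 of Day 5 had 8 such nuclei and did not enter, so that call too rests mostly on Day 1. The Socs2 call was lost with the batch as a block (adjusted p = 0.0717), the highest of the 2 of 5 other settings that ended it. It was also lost without any 1 of the 6 mice of Day 1 (up to 0.242). That of Stat3 in n23.Sst/Unc13c was lost without FGF1 replicate 2 or vehicle replicate 1, 2 or 28 (up to 0.0648), with DESeq2 (0.219) and after thinning (0.636). That of Socs3 was lost in Astro with DESeq2 (0.187) and in Tany without FGF1 replicate 1 or vehicle replicate 1 (up to 0.0951).

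In whole cells of Day 5, 3 of 117 signalling tests rose and 1 fell, a share below the 4.18% called over all genes, so the count does not set the list apart. Leprot, which limits how much leptin receptor reaches the cell surface, rose in tanycyte-like cells (0.64 ± 0.13, adjusted p = 0.00413) and astrocyte-like cells (0.51 ± 0.17, adjusted p = 0.0393). Stat3 rose in astrocyte-like cells (0.47 ± 0.16, adjusted p = 0.0491), and Irs2, an adaptor of insulin and leptin signalling, fell in ependymal-like cells (-0.75 ± 0.20, adjusted p = 0.0416). With each of the 12 mice left out in turn, Leprot in astrocyte-like cells lost its call 7 times (adjusted p up to 0.0975), Stat3 in astrocyte-like cells 9 times (up to 0.133) and Irs2 in ependymal-like cells 9 times (up to 0.178). Under the other settings the call was lost in 4 of 6 for Leprot (adjusted p up to 0.0855), in 3 of 6 for Stat3 (up to 0.164) and in 3 of 4 for Irs2, among them the batch as a block (up to 0.103).

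Among 31 related receptors, 0 of 138 tests were called on Day 1 (16 at an unadjusted p below 0.05, and 1 called by DESeq2), 1 of 125 fell on Day 5, and 2 rose and 2 fell of 64 in whole cells, beside 0.867%, 0.235% and 4.18% called over all genes. Ramp1, which pairs with receptors of the calcitonin family, fell in nuclei labelled COP on Day 5 (-2.35 ± 0.47, adjusted p = 0.00552), and in COP-like cells (-1.63 ± 0.30, adjusted p = 0.00743) and oligodendrocyte-like cells (-0.72 ± 0.15, adjusted p = 0.00952). The nuclei labelled COP held 4 of 5 markers of oligodendrocyte precursor cells (OPC) beside all 5 COP markers, so they are not the same class as the COP-like cells. The COP-like cells numbered 174 to 372 per FGF1 mouse and 16 to 51 per vehicle mouse. The part of the mix of cells within the COP-like and oligodendrocyte-like classes in the Ramp1 values was not tested. Neuronal marker RNA in the nuclei labelled COP was 7495.9 to 7781.8 CPM with FGF1 and 7924.7 to 8308.5 CPM with vehicle on Day 5. These ranges did not overlap, and the part of that RNA was not tested. In the fit over both days 1 of 200 tests was called (0.518% over all genes), Ramp1 in ependymal nuclei (-2.42 ± 0.49, adjusted p = 0.00162), which rests on Day 1, since no vehicle mouse of Day 5 had 10 such nuclei. There Ramp1 was 30.6 to 61.2 CPM with FGF1 and 129 to 379 CPM with vehicle on Day 1, and on Day 5 219 and 278 CPM with FGF1, against 263 and 214 CPM in the vehicle mice with 3 and 8 nuclei. Il6st, the gp130 chain shared by interleukin-6 type cytokines, rose in astrocyte-like cells (1.13 ± 0.15, edgeR adjusted p = 6e-06), as did the adiponectin receptor gene Adipor1 (0.50 ± 0.15, adjusted p = 0.0254). Ramp1 in COP nuclei lost its call with DESeq2 (adjusted p = 0.351) and without FGF1 replicate 45 or vehicle replicate 28 (up to 0.495), where the group of the mouse left out held 1 mouse. Of the 12 mice left out in turn, 5 ended the Adipor1 call (up to 0.0775) and 3 the Ramp1 call in COP-like cells (up to 0.0669), and 1 of 6 other settings ended each (0.0532 and 0.063).

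Of 20 genes of G protein signalling, 1 test fell on Day 1, of 168 (0.867% over all genes): Adrbk2, a kinase that desensitises receptors, in ependymal nuclei (-2.10 ± 0.48, adjusted p = 0.00488). On Day 5, 0 of 152 were called by edgeR (0.235% over all genes) and 0 by DESeq2, with 12 and 4 at an unadjusted p below 0.05. The fit over both days called Adrbk2 too (1 of 240, against 0.518% over all genes), which again rests on Day 1 and is not a second result. On Day 5 Adrbk2 was 126 and 178 CPM with FGF1 in these nuclei and 131 and 295 CPM in the vehicle mice with 3 and 8 of them, which overlapped. In whole cells 2 of 99 rose and 5 fell, beside the 4.18% of all gene tests called there. The inhibitory G protein subunits Gnai2 (0.64 ± 0.11) and Gnai3 (0.59 ± 0.14) rose in astrocyte-like cells, and in tanycyte-like cells the cyclase Adcy2 (-0.88 ± 0.15), Arrb1 (-0.52 ± 0.13) and Gnao1 (-0.50 ± 0.14) fell, as did Rapgef4 in oligodendrocyte-like cells (-0.95 ± 0.21). With each of the 12 mice left out in turn Gnao1 lost its call 8 times, Arrb1 4 times and Rapgef4 3 times (adjusted p up to 0.125, 0.0849 and 0.0661), and under the other settings Gnao1 lost it in 2 of 6 (up to 0.0774) and Rapgef4 in 1 of 6 (0.313). Those of Gnai2, Gnai3 and Adcy2 were kept each time.

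Of the 7 coregulators of estrogen receptors, 0 tests were called in these comparisons by edgeR (79 on Day 1, 70 on Day 5, 39 in cells and 120 over both days, of which 2, 7, 1 and 5 had an unadjusted p below 0.05), and 0 by DESeq2, beside 0.867%, 0.235%, 4.18% and 0.518% called over all genes. Of 8 genes of receptor ligands only Npy passed the filter, with 0 calls in 16 tests on Day 1, 10 on Day 5 and 6 in cells. Its median log2 fold change over types was -0.03 on Day 1 and -1.13 on Day 5, against 0.01 and 0.0005 over all genes. At an unadjusted p below 0.05 there were 0, 6 and 1 of these Npy tests, and DESeq2 called 0, 1 and 0. The median Npy level of the other nuclear types was 80.0 CPM, against 13363 CPM in n13.Agrp/Gm8773. The tests thus include types with little Npy. On Day 5 Astro had 34.5 and 156 CPM with FGF1 and 322 and 650 CPM with vehicle, while COP overlapped. Such types share mice and libraries with n13.Agrp/Gm8773, so the number of Npy tests does not count separate results. Within n13.Agrp/Gm8773 the Npy level of Day 5 was 4372 and 6817 CPM with FGF1 and 12938 and 16632 CPM with vehicle, so the groups did not overlap, and on Day 1 it was 7954 to 25721 CPM with FGF1 and 5085 to 15653 CPM with vehicle, which overlapped. Neither was called by edgeR, and the 1 DESeq2 call was that of Day 5 in these nuclei.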

How the data were processed

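Hypothalamic RNA of 22 mice was analysed, 10 as nuclei and 12 as whole cells, with 1 mouse per sample and every group taken from the deposited labels. The authors sequenced 10x Chromium 3' v2 libraries, aligned them to GRCm38 (mm10) with Cell Ranger version 1.2, with introns included for nuclei, filtered barcodes and clustered them with Seurat, and deposited raw UMI counts per gene and barcode. Doublets were removed by the authors from whole cells with Scrublet and not from nuclei. The deposited metadata gave sample, batch number and cell type or cluster of each barcode, and the authors' percent of UMIs from mitochondrial genes and from ribosomal genes per whole cell. The batch number is not explained in the sources used here, and each batch compared held 1 FGF1 and 1 vehicle mouse. The authors' normalized values were not used. Of 24965 nuclei 963, and of 54890 cells 4382, lay above the stated limits of 5% and 20%, and they were kept in the main fits. Left out of the types were 660 nuclei and 175 cells.

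Nuclear types were those of the authors. Whole-cell clusters were named when at least 3 markers of a type were detected, by a rule set after their profiles were seen. Clusters of the same name were summed: 0, 7 and 10 as tanycyte-like, 1 and 4 as astrocyte-like, and 2, 11 and 12 as oligodendrocyte-like. The part of a shift between such clusters was not tested. Counts were summed per mouse and type (at least 10 barcodes per mouse, at least 2 mice per group) and tested with edgeR 4.0.16 in R 4.3.3 (TMM scaling, filterByExpr, robust quasi-likelihood fit, Benjamini-Hochberg over all genes of a type, called at adjusted p below 0.05). SEs were the log2 fold change over the root of F. Days were fitted apart, together with day as a term, and with an interaction. CPM and shares of barcodes with a UMI were descriptive. Where a level over all mice is given, its mean and SD used mice with at least 10 barcodes of the type. The UMI total and the share beside it covered all barcodes of the type. Shares in whole cells were compared with exact two-sided permutation tests after thinning to 700 UMIs per cell (1500 per nucleus). Intervals of counts and shares cover counting error only. Alternatives were DESeq2 1.42.0, RLE scaling, no count filter, the stated barcode limits, thinned barcodes, the batch or the replicate number as a block, and leaving out each mouse. The fits were tested on simulated counts.

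Samples with the same replicate number on Day 1 did not deviate together (correlations over all neurons of -0.134, -0.062 and 0.341), so the numbers were not taken to pair mice. Nor did samples of the same batch on Day 1 (-0.352, -0.075 and -0.478). The 8 receptors and the gene lists were chosen with earlier results of these data known. Named were the 8 receptors in every type, from each list the called genes, at most 6 per list and comparison by smallest p, and the 3 genes most alike each receptor, of which one is not reported here. Promoters came from RefSeq (GRCm38.p6) and gene positions from GENCODE vM21.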

Additional observations from a re-analysis of the deposited data

Results flagged for a closer look

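In 7 of 42 groups of 4 to 10 mice examined, 1 mouse lay far from the others by Dixon's criterion. Chance gives about 1 in 20 for values with a continuous spread, a rate that does not hold for groups mostly at 0, where a single UMI is enough. All 42 were whole-cell groups of Day 5, since no group of nuclei held 4 mice, so nuclei were not examined in this way. In VLMC-like cells, vehicle replicate 20 was the only vehicle mouse with Lepr (41.0 CPM, 5 UMIs) and with Esr1 (8.19 CPM, 1 UMI), the others being at 0. Npy1r in pericyte-like cells was 30.9 CPM (2 UMIs) in FGF1 replicate 36, with the other FGF1 mice at 0, and 83.2 CPM (4 UMIs) in vehicle replicate 22, with the next vehicle mouse at 20.7 CPM. FGF1 replicate 6 stood apart for 3 signalling genes: Irs2 in ependymal-like cells was 0 CPM, with the next mouse at 25.8 CPM, Leprot in astrocyte-like cells was 44.1 CPM, with the next at 33.0 CPM, and Stat3 in astrocyte-like cells was 173 CPM, with the next at 115 CPM. FGF1 replicate 6 had 19 ependymal-like cells, so that its 0 for Irs2 is a count of 0 in a small sum. Without FGF1 replicate 6 the calls of Leprot and Stat3 in astrocyte-like cells were lost and that of Irs2 was kept.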

How the results depend on the processing

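Over all receptor tests, 734 of 855 values recomputed with 1 mouse left out and 644 of 688 under other settings kept their sign, and the largest value to change it was 0.437 in size. Of the receptor values given singly in the report, 213 with 1 mouse left out kept their direction and side of the threshold, 17 changed sign and 1 passed the threshold, and under the other settings 221 kept both and 6 changed sign. The number of receptor calls on Day 5 ranged from 0 to 1 over the mice left out, the 1 being Prlr over all neurons without vehicle replicate 28, with 1 vehicle mouse assumed to vary like the others, and it stayed at 0 in every other comparison and setting. Among these values sign changes without 1 mouse came from these log2 ranges: Prlr in n29.Nr5a1/Adcyap1 on Day 5 -0.127 to 0.375 (-0.074 after thinning), Lepr in n13.Agrp/Gm8773 -0.831 to 0.001 on Day 1 and -0.779 to 0.982 on Day 5 (positive without vehicle replicate 3 and without vehicle replicate 28), Lepr in GABA15 over both days -0.266 to 0.498, Lepr in all neurons -0.538 to 0.008 and -0.66 to 0.115, Esr1 in all neurons -0.215 to 0.032 and -0.36 to 0.034, Npy1r in all neurons on Day 5 -0.143 to 0.264, Npy2r in all neurons on Day 5 -0.014 to 1.118, and Npy5r in all neurons -0.295 to 0.193 and -0.256 to 0.743. With the batch as a block, Prlr in n20.Kiss1/Tac2 was 0.220 and Npy1r in all neurons on Day 5 was 0.034. That Npy1r value was 0.016 without the filter and 0.028 with DESeq2, and Npy5r in all neurons on Day 5 was -0.042 after thinning. The cause was not tested. With the replicate number as a block, a pairing that the numbers did not show, 0 receptors were called on Day 1 and 0 over both days, and calls over all genes went from 756 to 604 and from 668 to 623.

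Of the signalling, receptor and G protein genes named, 183 results without 1 mouse and 133 under other settings kept their call, and 79 and 28 lost it. All genes called numbered 756 on Day 1 (1628 without the filter, 230 thinned, 383 with batch, 255 to 913 with a mouse left out), 206 on Day 5 (722 without the filter, 102 by DESeq2, 136 to 2177), 668 over both days (1407, 258 thinned, 397 with batch, 207 to 895), 2347 in cells (1400 to 3207) and 6 between days (254 without the filter, 17 by DESeq2, 18 within the stated limits, 1 thinned). Glp1r in n06.Oxt was 16.5 CPM after thinning against 8.06. The batch block could not be fitted for GABA15 and n02.Gm8773/Tac1 on Day 1 or for GABA14, GABA15, n01.Hdc, n03 and n19.Gpr50 over both days, the stated limit not for VLMC on Day 1, and thinning and the replicate block not for GABA14 over both days. Ghsr and Glp1r passed the filter in no type, and low depth and low level cannot be told apart there.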

Other observations

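Barcodes that the cell types left out were few and held some receptor RNA. In the 420 left-out nuclei of FGF1 mice and 240 of vehicle mice, Lepr was 14.7 and 15.9 CPM (22 and 15 UMIs), Prlr 34.1 and 45.5 CPM, Esr1 17.4 and 19.1 CPM and Npy5r 8.02 and 5.29 CPM. The 78 and 97 left-out whole cells held 1 UMI of Prlr and none of the other receptors.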
